A study of Homo sapiens with 24 samples.

Results

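The comparison described here asks which transcripts changed when L-ascorbic acid (LAA, vitamin C) was added to olaparib in libraries labelled MOLM-13. Its members are the 3 libraries that received both agents (the combination) and the 3 that received olaparib alone, 6 of the 24 libraries in the series, chosen by their labels. MOLM-13 and THP-1 are established human acute myeloid leukemia lines, both known to carry a fusion of KMT2A with MLLT3. In each line cells were given vehicle (PBS and DMSO), LAA at 250 µM in PBS, olaparib at 1 µM in DMSO, or LAA and olaparib together, all for 72 h, with 3 libraries per group. PolyA-selected RNA was sequenced, and the deposited counts per gene were compared. Nothing in the labels tells whether replicates came from separate cultures, and p-values here cover only the spread among these libraries, which may be technical. In bulk RNA, fewer cells of a kind and less RNA per cell cannot be told apart.

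Ascorbate is a cofactor of iron- and oxoglutarate-dependent dioxygenases, among them the TET enzymes that oxidize methylated cytosine and the prolyl hydroxylases that mark hypoxia-inducible factor for degradation. Olaparib blocks PARP1 and PARP2, enzymes that attach poly-ADP-ribose and act in the repair of oxidized or broken DNA. In myeloid cells interferon signalling runs from nucleic acid sensors through transcription factors such as IRF7 to a broad set of antiviral genes, while sterol genes answer to SREBP factors and amino acid genes to ATF4.

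The libraries were checked before any result was read. Total counts were 18666259 to 25265870 per library over all 24. Levels are given as CPM, counts per 1000000 counts of a library after scaling by edgeR's TMM factors, for replicates 1, 2 and 3 in that order. Log2 fold changes are combination minus olaparib, given ± SE, with 3 libraries per group. Olaparib replicate 3 stood apart from the other 11 MOLM-13 libraries on the second principal component. Mitochondrially encoded genes took 11.02% of its counts, against 8.63 and 8.22% in olaparib replicates 1 and 2 and 8.73 to 9.31% in the combination. Group means of that share were 9.08 and 9.29% (exact permutation test, two-sided, p = 1, where 0.1 is the smallest p that 3 against 3 can give). Totals of calls were also computed without it for this comparison, for the interaction and for the difference between the lines, all described below. So were the list counts and the values of genes named by rule in this comparison. List counts and gene values of the interaction and of the line difference were not. Nor were the overlap with LAA alone, the effect of olaparib alone, and genes named outside the rule.

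The label MOLM-13 was set beside the THP-1 libraries. With vehicle, 765 of 17089 tested genes (4.48%) differed between the lines by edgeR, 340 higher (1.99%) and 425 lower (2.49%) in MOLM-13, and 81 of them (0.474%) by at least 4-fold. A set of 8 protein-coding genes had at least 20 counts over the 3 MOLM-13 vehicle libraries and at most 3 over the 12 THP-1 libraries. They were EMD, MTAP, NFE4, ZFP57, KLHL9, IGF2BP3, SH3RF3 and SEZ6L, which lie on 6 chromosomes. Their summed level was 12.5 to 15.2 CPM with vehicle, 5.23 to 8.79 with olaparib, 1.34 to 2.71 with LAA and 1.38 to 1.76 with the combination, and at most 0.154 in any THP-1 library. All MOLM-13 libraries that received LAA were below all that did not, with or without olaparib. The 8 genes were chosen by their counts in the MOLM-13 vehicle libraries, which favours a lower level in any other MOLM-13 group. The contrast of the combination with olaparib uses no vehicle library. The filter on low counts, the scaling and the spread came from all 12 MOLM-13 libraries, so vehicle levels could bring a gene into the test. Of the 46 genes at least 4-fold higher in MOLM-13 than in THP-1, 26 were called lower when LAA was added to olaparib and 0 higher (median log2 fold change -1.53), where 4.59% of all tested genes were called lower and 2.89% higher. Of the 16 tested genes at least 4-fold lower in MOLM-13, 5 were called higher and 0 lower. At any fold, 104 of the 340 genes higher in MOLM-13 were called lower and 12 higher. Of the 406 tested genes lower in MOLM-13, 68 were called higher and 45 lower. Among genes not called between the lines, 3.84% were called lower and 2.51% higher. Of 106 genes picked by the naming rule and called when LAA was added to olaparib, 39 differed between the lines with vehicle by edgeR, 18 higher and 21 lower in MOLM-13. Of these, 25 differed at least 2-fold. The 14 that differed by less were TNF, HLA-E, TRIB3, ATF5, HSPA5, DNAJB11, WARS, ABCA1, NDRG1, SLC2A1, CDKN1A, DTL, S100A8 and NKG7. The part of the difference between the lines in the results below was not tested. MOLM-13 is used throughout as the label of these libraries, and the identity of the cultures was not tested.

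**Figure D1:**
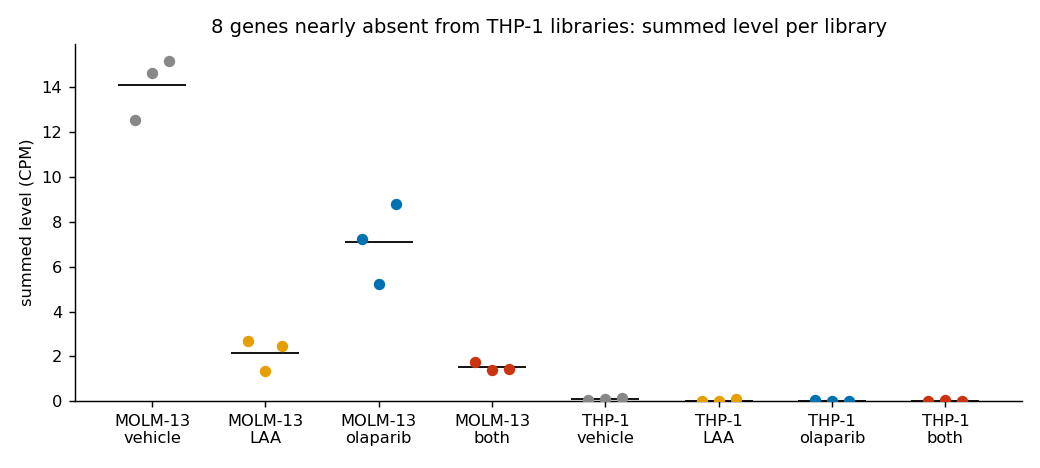
Summed level in CPM (y axis) of 8 genes nearly absent from THP-1, per library (points) and group mean (horizontal lines) in each line and treatment, with the combination marked both. MOLM-13 libraries with LAA, alone or with olaparib, sit at 1.34 to 2.71 CPM, below the 5.23 to 15.2 CPM of those without it. The 8 genes were chosen by their counts in the MOLM-13 vehicle and the THP-1 libraries.

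Myeloid leukemia markers summed to 2024 to 2243 CPM with olaparib and 1621 to 1680 CPM with the combination. Of 12 tested members 3 were called lower and 0 higher, where 4.59% of all tested genes were called lower. FCER1G, the signalling chain of Fc receptors, stood at 434, 401 and 572 CPM with olaparib and at 209, 196 and 189 CPM with the combination (2.37-fold, log2 fold change -1.24 ± 0.13, edgeR adjusted p = 2.9e-06). The cytoskeletal gene AIF1 and the leukocyte gene LST1 fell 1.95-fold and 1.603-fold (edgeR adjusted p = 7.38e-06 and 5.17e-05). Markers of T and NK cells summed to 22.8 to 25 CPM with olaparib and 16.2 to 19.2 CPM with the combination, those of B cells to 32.7 to 36.6 and 31.6 to 35.1 CPM, erythroid and megakaryocyte markers to 16.6 to 24.1 and 14.97 to 16.2 CPM, and epithelial and fibroblast markers to 6.92 to 8.08 and 6.37 to 8.58 CPM. Among these 4 lists 6, 6, 4 and 3 members were tested. Only NKG7 of the T and NK list (1.73-fold, edgeR adjusted p = 0.012) and FCRLA of the B cell list (3.75-fold, edgeR adjusted p = 0.0265) were called, both lower. The FCRLA call was lost without olaparib replicate 3 or any combination replicate, and the NKG7 call without olaparib replicate 1 or combination replicate 2 or 3. In the erythroid and epithelial lists edgeR and DESeq2 each called 0, with 1 and 0 members at an unadjusted p under 0.05. The part of these shifts in the results below was not tested.

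Adding LAA to olaparib raised interferon-stimulated genes and genes of the integrated stress response, and lowered genes of sterol and fatty acid synthesis, of the hypoxia response and of myeloid function. In all, 1208 of 16160 tested genes (7.48%) were called by edgeR's quasi-likelihood test (adjusted p under 0.05, Benjamini-Hochberg), 467 higher (2.89%) and 741 lower (4.59%). Of these, 253 changed at least 2-fold (1.57%), 81 higher (0.501%) and 172 lower (1.06%). The balance of directions depended on the scaling: total-count scaling gave 772 higher and 529 lower. The libraries of the 2 groups did not overlap for 4586 genes (28.4%), and the median log2 fold change over all tested genes was -0.0026. Without combination replicate 2 or 3 the count fell to 624 and 632, and without olaparib replicate 1 or combination replicate 1 the higher genes numbered 285 and 292. Leaving out olaparib replicate 3 gave 912 calls, of which 798 were among the 1208.

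Interferon-stimulated genes, which encode antiviral effectors, rose together. Of 46 tested members 37 rose, 0 fell and 9 were not called, with a median log2 fold change of 1.04. The 10 largest increases under the naming rule included 8 of them: IFI27, IFI44L, IFI44, OAS3, EPSTI1, IFITM1, IFIT1 and OASL. The rule took these increases, and the 10 largest decreases, only from genes whose groups did not overlap. Where their groups are said below to be apart, the rule had fixed it, and 28.4% of all tested genes did not overlap. The interferon-stimulated response element is the motif bound by the transcription factor complex that interferon activates. The 200 bases before the start of transcription of 5 of these genes are shown because they carry this motif, searched on both strands as TTTC, any 2 bases and TTTC, which reads GAAA, any 2 bases and GAAA on the other strand. The sequences are from RefSeq on GRCh38.p14, in the direction of the gene, and capitals mark the matches.
IFI27, chr14:94110536-94110735, plus strand: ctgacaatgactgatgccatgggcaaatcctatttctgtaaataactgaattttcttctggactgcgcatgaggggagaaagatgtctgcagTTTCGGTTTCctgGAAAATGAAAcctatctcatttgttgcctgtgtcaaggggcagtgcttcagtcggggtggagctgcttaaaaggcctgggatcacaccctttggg
IFI44L, chr1:78620248-78620447, plus strand: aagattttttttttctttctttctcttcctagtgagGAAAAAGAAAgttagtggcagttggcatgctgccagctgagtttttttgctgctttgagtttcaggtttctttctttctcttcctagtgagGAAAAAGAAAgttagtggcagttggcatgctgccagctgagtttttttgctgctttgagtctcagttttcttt
IFI44, chr1:78649589-78649788, plus strand: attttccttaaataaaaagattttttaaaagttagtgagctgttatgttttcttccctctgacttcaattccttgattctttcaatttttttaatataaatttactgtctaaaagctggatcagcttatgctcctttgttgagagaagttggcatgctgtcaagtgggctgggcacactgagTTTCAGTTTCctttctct
OAS3, chr12:112938274-112938473, plus strand: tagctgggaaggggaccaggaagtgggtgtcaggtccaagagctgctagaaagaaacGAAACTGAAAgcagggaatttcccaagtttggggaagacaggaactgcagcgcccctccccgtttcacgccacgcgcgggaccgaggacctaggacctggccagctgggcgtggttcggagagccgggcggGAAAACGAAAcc
IFIT1, chr10:89392423-89392622, plus strand: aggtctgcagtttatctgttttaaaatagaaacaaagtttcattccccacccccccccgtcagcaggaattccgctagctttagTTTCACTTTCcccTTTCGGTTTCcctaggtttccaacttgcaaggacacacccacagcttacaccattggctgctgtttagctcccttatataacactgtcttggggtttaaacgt
Matches began at -108 and -95 from the start in IFI27, at -164 and -73 in IFI44L, at -18 in IFI44, at -143 and -12 in OAS3 and at -116 and -103 in IFIT1. Of 27305 RefSeq promoter windows of 300 bases (250 before to 50 after the start), 996 (3.65%) held the motif. The table had windows for 28 of the 37 called genes, 20 of them with the motif, so the list as a whole was not read against that share. Of the 9 members not called, 7 had windows, 4 of them with the motif. A match is a run of letters and was not tested as a binding site.

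IFI27 encodes a small membrane protein and lies on chromosome 14 from 94104836 to 94116698 (ENSG00000165949) in hg38. It stood at 3.83, 3.23 and 4.24 CPM with olaparib and at 39.7, 42.8 and 24.7 CPM with the combination. All 3 combination libraries were above all 3 olaparib libraries, a rise of 9.45-fold, log2 fold change 3.24 ± 0.30, edgeR adjusted p = 7.64e-07. IFI44L, at chromosome 1 from 78619922 to 78646145 (ENSG00000137959), stood at 1.78, 1.33 and 2.78 CPM with olaparib and at 9.67, 19.999 and 13.9 CPM with the combination (7.34-fold, log2 fold change 2.88 ± 0.28, edgeR adjusted p = 1.47e-06). Its neighbour IFI44 had 2.16, 1.39 and 1.32 CPM with olaparib and 9.31, 11.8 and 12.3 CPM with the combination (6.89-fold, log2 fold change 2.78 ± 0.22, edgeR adjusted p = 9.17e-08). Neither gene overlapped between the groups. OAS3 makes the oligoadenylates that switch on an RNA-degrading enzyme. It stood at 32.8, 27.4 and 28.6 CPM with olaparib and at 97.4, 162 and 121 CPM with the combination (4.29-fold, log2 fold change 2.10 ± 0.18, edgeR adjusted p = 2.6e-07). The other members of the family on the list, OAS1, OAS2 and the catalytically inactive OASL, rose 2.42-fold, 3.24-fold and 3.802-fold (edgeR adjusted p = 1.78e-06, 7.36e-07 and 1.3e-05). IFIT1 binds foreign RNA by its cap and stood at 8.14, 4.41 and 5.37 CPM with olaparib and at 22.6, 27.4 and 18.1 CPM with the combination (3.82-fold, log2 fold change 1.93 ± 0.19, edgeR adjusted p = 1.78e-06).

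Effectors that act at membranes or on proteins followed. IFITM1 blocks entry of enveloped viruses and stood at 17.3, 13.3 and 12.7 CPM with olaparib and at 51.9, 61.3 and 54.6 CPM with the combination (3.88-fold, log2 fold change 1.96 ± 0.14, edgeR adjusted p = 2.02e-08). ISG15, a ubiquitin-like protein, stood at 28.8, 25.6 and 33.3 CPM with olaparib and at 94.6, 111 and 95.1 CPM with the combination (3.43-fold, log2 fold change 1.78 ± 0.14, edgeR adjusted p = 6.88e-08). For both genes the lowest combination library was above the highest olaparib library. IFIT2 rose 3.66-fold and EPSTI1 4.28-fold (edgeR adjusted p = 6.88e-08 and 3.81e-06). Among regulators, the transcription factor gene IRF7 rose 1.795-fold, and the RNA sensor genes IFIH1 and DDX58 rose 1.92-fold and 1.79-fold (edgeR adjusted p = 0.00121, 3.88e-05 and 0.0004). These 3 and the OAS1 and OAS2 values above lie outside the naming rule and were chosen for their roles after their values were seen. STAT2 and IRF9, subunits of a complex that binds the motif, had log2 fold changes of 0.07 and -0.07 and were not called. MX1, an antiviral GTPase, stood at 1.72, 2.001 and 1.87 CPM with olaparib and at 1.76, 1.94 and 2.59 CPM with the combination and was not called either (log2 fold change 0.17 ± 0.28, edgeR adjusted p = 0.794). Its groups overlapped, and without combination replicate 3 its log2 fold change was -0.0058.

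With vehicle, 39 of the 46 interferon-stimulated genes were lower in MOLM-13 than in THP-1. Leaving out genes that differed between the lines left 2 of the 37 calls, so for this list the rise and the direction of the line difference coincide. Mean levels with olaparib were above those of THP-1 with vehicle for 2 of the 46 genes, and those with the combination for 36. Set against THP-1 with olaparib, the combination means were above for 29. IFI27 averaged 35.7 ± 9.68 CPM (SD, n = 3) with the combination in MOLM-13. In THP-1 it averaged 26.1 ± 2.55 CPM with vehicle and 31.7 ± 10.3 CPM with olaparib. No gene of the list was above the THP-1 combination libraries. Without olaparib replicate 3, 37 of 46 members were again called higher, with a median of 1.15.

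Genes outside the list are given next. KLHDC7B, a kelch-domain gene, had the largest increase under the naming rule. It stood at 0.323, 0.616 and 0.956 CPM with olaparib and at 8.07, 7.21 and 6.17 CPM with the combination (11.03-fold, log2 fold change 3.46 ± 0.49, edgeR adjusted p = 0.000125), and lies on chromosome 22 from 50545891 to 50551023 (ENSG00000130487). SIGLEC1, a sialic acid receptor of macrophages, stood at 11.05, 9.54 and 12.2 CPM with olaparib and at 30.3, 39.5 and 37.1 CPM with the combination (3.25-fold, log2 fold change 1.70 ± 0.14, edgeR adjusted p = 1.04e-07). For both, the groups' libraries were apart. SIGLEC1 was 3.21-fold lower in MOLM-13 than in THP-1 with vehicle. Among 18 tested genes of MHC class I and peptide loading, 2 rose and 2 fell, where 2.89% of all tested genes rose and 4.59% fell. TAP1, the peptide transporter, rose 1.32-fold and the chaperone CALR 1.28-fold (edgeR adjusted p = 0.00566 and 0.00407). HLA-E fell 1.31-fold (edgeR adjusted p = 0.0033), and HLA-C 1.55-fold (edgeR adjusted p = 0.0259). The HLA-C call was lost in 5 of 14 other settings: by DESeq2, and without olaparib replicate 3 or any combination replicate. HLA-C was 148 CPM in olaparib replicate 3 against 82.2 and 82.8 in replicates 1 and 2. HLA genes share reads with near-identical copies, so their values are uncertain. Of 11 MHC class II genes 1 rose, HLA-DRA (1.52-fold, edgeR adjusted p = 0.0243), and 0 fell, where 7.48% of all tested genes were called. The HLA-DRA call was lost without olaparib replicate 1 or 2 or combination replicate 1 or 2.

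**Figure D2:**
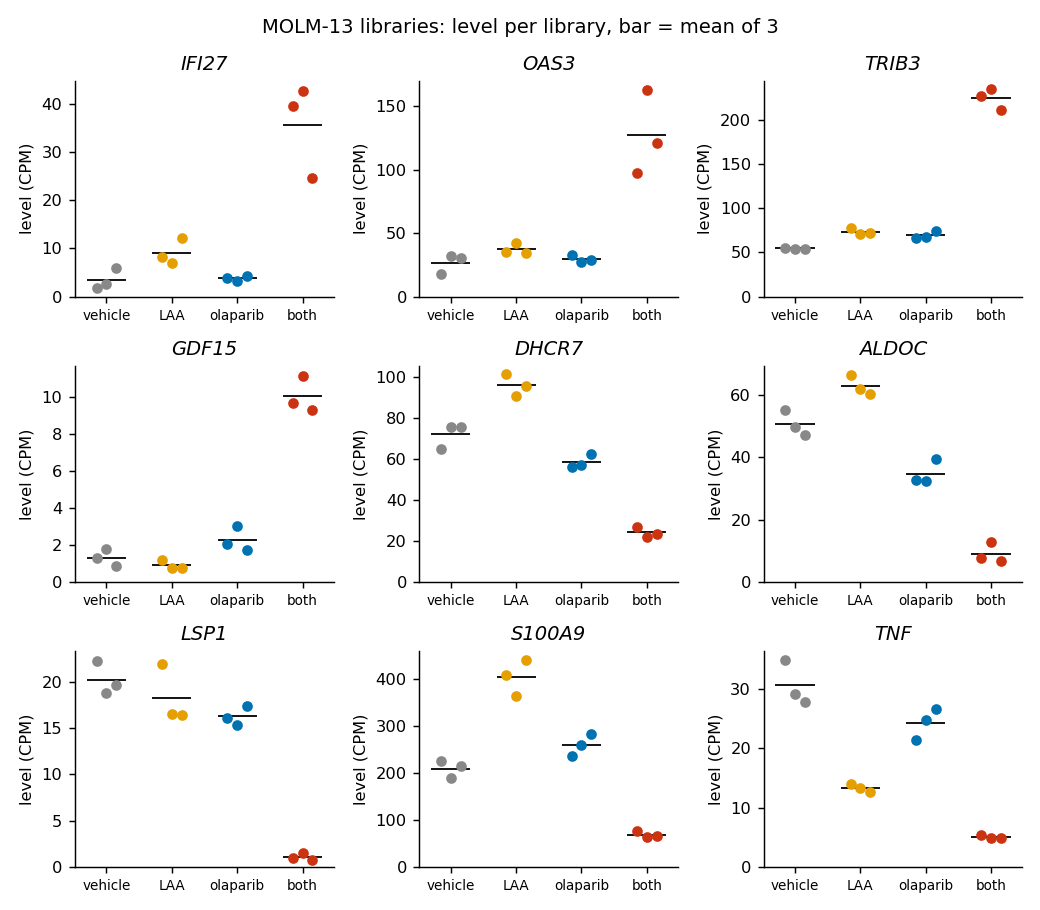
Level in CPM (y axis) of 9 genes in each MOLM-13 library (points) by treatment, with the mean of 3 as a bar; each panel has its own scale starting at 0. IFI27, OAS3, TRIB3 and GDF15 are highest and DHCR7, ALDOC, LSP1, S100A9 and TNF lowest in the combination, where all 3 libraries lie outside the range of the olaparib libraries.

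Genes of the integrated stress response rose as well. It is the program in which ATF4 and partner factors turn on amino acid synthesis, transport and tRNA charging. Of 34 tested members 20 rose, 0 fell and 14 were not called, with a median log2 fold change of 0.63. TRIB3, a pseudokinase that ATF4 induces, had the smallest adjusted p of the list. It stood at 65.95, 67.8 and 74.9 CPM with olaparib and at 227, 235 and 212 CPM with the combination (3.23-fold, log2 fold change 1.69 ± 0.0751, edgeR adjusted p = 8.44e-11), on chromosome 20 from 362835 to 397559 (ENSG00000101255). GDF15, a stress cytokine, stood at 2.05, 3.03 and 1.73 CPM with olaparib and at 9.67, 11.1 and 9.2995 CPM with the combination (4.43-fold, log2 fold change 2.15 ± 0.26, edgeR adjusted p = 1.78e-05). Both genes were separated between the groups by more than the spread within either. The transcription factor gene ATF5 stood at 82.01, 79.2 and 72.5 CPM with olaparib and at 164, 173 and 152 CPM with the combination (2.09-fold, log2 fold change 1.06 ± 0.0737, edgeR adjusted p = 2.02e-08). PSAT1 makes serine and stood at 80.1, 72.96 and 80.2 CPM with olaparib and at 152, 156 and 144 CPM with the combination (1.94-fold, log2 fold change 0.95 ± 0.0746, edgeR adjusted p = 8.52e-08). SLC7A5, a carrier of large neutral amino acids, stood at 142, 150.1 and 153 CPM with olaparib and at 259, 265 and 244 CPM with the combination (1.72-fold, log2 fold change 0.78 ± 0.0707, edgeR adjusted p = 4.85e-07). In these 3 genes as well no olaparib library reached the lowest combination library. The transcript of ATF4 itself had a log2 fold change of 0.05 and was not called. Without olaparib replicate 3, 18 of 35 tested members rose and 1 fell.

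Of 20 cytosolic aminoacyl-tRNA synthetases, which charge tRNAs, 9 rose and 2 fell (median 0.25). WARS stood at 149, 137 and 155 CPM with olaparib and at 269.96, 278 and 261 CPM with the combination (1.84-fold, log2 fold change 0.88 ± 0.0727, edgeR adjusted p = 1.65e-07), and WARS is also an interferon-inducible gene. GARS, IARS and YARS rose 1.401-fold, 1.38-fold and 1.32-fold (edgeR adjusted p = 0.000424, 0.000808 and 0.000863). The 2 that fell, DARS and QARS, had log2 fold changes of -0.30 and -0.27 and are named after their values were seen. With total-count scaling 14 synthetases were called higher, and without olaparib replicate 1, 5 were. Among 27 endoplasmic reticulum chaperones and XBP1 targets 5 rose and 0 fell (median 0.16), where 2.89% of all tested genes rose. XBP1, a transcription factor of the unfolded protein response, rose 1.29-fold from 115 ± 4.82 to 148 ± 1.86 CPM (SD, n = 3; edgeR adjusted p = 0.0021). HSPA5 and DNAJB11, chaperones of the same compartment, rose 1.21-fold and 1.25-fold (edgeR adjusted p = 0.0265 and 0.0302), but both calls were lost in 5 of 14 other settings.

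Genes of sterol synthesis fell together. Of 24 tested members of the cholesterol list 20 fell, 0 rose and 4 were not called, with a median log2 fold change of -0.58, and 19 fell without olaparib replicate 3. DHCR7, which makes the last step to cholesterol in a branch of the pathway, stood at 55.9, 56.8 and 62.2 CPM with olaparib and at 26.8, 22.1 and 23.3 CPM with the combination (2.43-fold, log2 fold change -1.28 ± 0.0956, edgeR adjusted p = 5.05e-08). The gene lies on chromosome 11 from 71428193 to 71452868 (ENSG00000172893). MSMO1, a sterol methyl oxidase, stood at 60.6, 62.5 and 59.1 CPM with olaparib and at 26.9, 27.7 and 25.5 CPM with the combination (2.28-fold, log2 fold change -1.19 ± 0.0841, edgeR adjusted p = 2.54e-08). INSIG1, which holds SREBP factors in the endoplasmic reticulum and is itself their target, stood at 323, 315 and 352 CPM with olaparib and at 166, 157 and 152 CPM with the combination (2.09-fold, log2 fold change -1.06 ± 0.0865, edgeR adjusted p = 1.29e-07). In all 3 genes the highest combination library was below the lowest olaparib library. LSS closes the sterol rings and fell 1.92-fold (edgeR adjusted p = 1.59e-07). The 4 members not called, EBP, CYP51A1, NSDHL and PMVK, had log2 fold changes of -0.29 to -0.17.

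Fatty acid genes were lower or not called, with 7 of 13 tested members lower and 0 higher (median -0.56). FADS2, a desaturase of polyunsaturated fatty acids, stood at 235, 243 and 256 CPM with olaparib and at 116, 100.1 and 108 CPM with the combination (2.27-fold, log2 fold change -1.18 ± 0.0792, edgeR adjusted p = 1.41e-08). SCD makes monounsaturated fatty acids and stood at 747, 768 and 735 CPM with olaparib and at 375, 374 and 353 CPM with the combination (2.04-fold, log2 fold change -1.03 ± 0.0829, edgeR adjusted p = 1.14e-07). FASN, the fatty acid synthase, stood at 1411, 1381 and 1498 CPM with olaparib and at 877, 891 and 875 CPM with the combination (1.62-fold, log2 fold change -0.70 ± 0.0753, edgeR adjusted p = 4.06e-06). No library overlapped between the groups for these 3 genes. FADS1 fell 1.63-fold (edgeR adjusted p = 3.55e-06). Liver X receptors sense oxysterols, and of 10 tested targets 4 fell and 1 rose (median -0.37). Over all tested genes 4.59% fell and 2.89% rose. The targets lower were SCD, SREBF1 (1.47-fold), the cholesterol exporter ABCA1 (1.93-fold) and MYLIP (1.97-fold), a ligase that degrades the LDL receptor (edgeR adjusted p = 7.5e-05, 0.00114 and 0.00202 for the latter 3). APOE, a lipid carrier, rose 1.65-fold (edgeR adjusted p = 0.00491). SCD and SREBF1 are on the fatty acid list as well.

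Targets of hypoxia-inducible factor were lower or not called. Of 40 tested genes 17 fell and 0 rose, with a median log2 fold change of -0.28. ALDOC, an aldolase of glycolysis, stood at 32.7, 32.3 and 39.4 CPM with olaparib and at 7.66, 12.8 and 6.61 CPM with the combination (3.82-fold, log2 fold change -1.93 ± 0.17, edgeR adjusted p = 2.6e-07). NDRG1, a hypoxia marker, stood at 152, 157 and 177 CPM with olaparib and at 74.6, 82.5 and 65.7 CPM with the combination (2.18-fold, log2 fold change -1.12 ± 0.0896, edgeR adjusted p = 1.03e-07). SLC2A3, a glucose transporter that also takes up dehydroascorbate, stood at 8.51, 13.6 and 12.1 CPM with olaparib and at 4.97, 3.89 and 4.08 CPM with the combination (2.66-fold, log2 fold change -1.41 ± 0.17, edgeR adjusted p = 1.89e-05). For each of the 3 the groups were apart. BNIP3L, which acts in mitophagy, fell 1.61-fold (edgeR adjusted p = 4.62e-05). Among highly expressed glycolysis genes, LDHA had a log2 fold change of -0.27, PGK1 of -0.17 and ENO1 of -0.021, of which LDHA was called (edgeR adjusted p = 0.0294). These 3 were named after their values were seen. The count of genes called lower was 11 with total-count scaling, and 11 without olaparib replicate 1, combination replicate 1 or combination replicate 3. SLC2A3 was among the genes higher in MOLM-13 than in THP-1 with vehicle (2.86-fold).

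Among 29 tested ascorbate-dependent dioxygenases other than TET, 3 fell and 0 rose, where 4.59% of all tested genes fell. They were the collagen prolyl hydroxylase P4HA1 (1.55-fold), the oxygen sensor EGLN3 (3.73-fold) and the histone demethylase KDM3A (1.35-fold), with edgeR adjusted p of 6.24e-05, 0.01 and 0.0128, and all 3 are hypoxia targets on that list too. EGLN3 was at 1.94, 1.18 and 1.002 CPM with olaparib, and its call was lost without olaparib replicate 1 or combination replicate 2. The KDM3A call was lost with total-count scaling and without olaparib replicate 1 or combination replicate 1 or 3. Of 8 genes of ascorbate transport and recycling 2 fell, SLC2A3 and SLC2A1 (1.298-fold, edgeR adjusted p = 0.00231). Of 14 genes of DNA methylation and its oxidation 0 passed edgeR's test, 3 had an unadjusted p under 0.05 and DESeq2 called 1. TET1, TET2 and TET3 had log2 fold changes of -0.27 ± 0.22, 0.024 ± 0.14 and 0.24 ± 0.14, and DNMT1, DNMT3A and DNMT3B of 0.16 ± 0.07102, 0.16 ± 0.11 and 0.27 ± 0.15. TDG, which excises oxidized cytosine, had 0.20 ± 0.0915. The sign of TET2 changed when olaparib replicate 1 (-0.038) or combination replicate 2 (-0.12) was left out.

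Of 27 tested genes of base excision repair and poly-ADP-ribosylation 0 passed edgeR's test, 5 had an unadjusted p under 0.05 and DESeq2 called 2. PARP1 had a log2 fold change of 0.18 ± 0.0666 (edgeR adjusted p = 0.125) and PARP2 of -0.07 ± 0.10 (edgeR adjusted p = 0.743). PARP1 passed with total-count scaling, in a fit of all 24 libraries and by DESeq2, at adjusted p of 0.0328, 0.0273 and 0.0374. Of 36 genes of homologous recombination and Fanconi anemia repair 2 rose and 1 fell, where 7.48% of all tested genes were called. EXO1, a nuclease that resects DNA ends, rose 1.31-fold (edgeR adjusted p = 0.00145). BRCA2 (1.24-fold higher) and FANCE (1.23-fold lower) had edgeR adjusted p of 0.0456 and 0.0436, and each was lost in 7 of 14 other settings.

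Some replication genes rose by small amounts. Of 40 replication genes 7 rose and 0 fell (median 0.12), where 2.89% of all tested genes rose. All 7 rose by less than 1.5-fold. MCM7, a subunit of the replicative helicase, rose 1.33-fold from 267 ± 13.5 to 355 ± 8.54 CPM (SD, n = 3; edgeR adjusted p = 0.00184). MCM10, DTL and MCM3 rose 1.36-fold, 1.24-fold and 1.199-fold (edgeR adjusted p = 0.00276, 0.0103 and 0.0162). The MCM3 call was lost without olaparib replicate 1 or 2 or combination replicate 2 or 3, and the DTL call without combination replicate 2. Of 40 mitosis genes 2 were called, where 7.48% of all tested genes were. AURKA rose 1.18-fold and KIF20A fell 1.26-fold (edgeR adjusted p = 0.0297 and 0.0168). The AURKA call was lost in 7 of 14 other settings, among them leaving out any 1 library of either group. The KIF20A call was lost in 4, among them without olaparib replicate 3. Among 26 tested p53 targets 6 fell and 2 rose, where 4.59% of all tested genes fell and 2.89% rose. Without olaparib replicate 3, 3 fell and 2 rose. CDKN1A, a cell cycle inhibitor, stood at 162, 171 and 168 CPM with olaparib and at 105, 109 and 97.4 CPM with the combination (1.61-fold, log2 fold change -0.69 ± 0.0679, edgeR adjusted p = 1.47e-06). BTG2, an antiproliferative gene, fell 1.95-fold (edgeR adjusted p = 2.12e-06), while SESN2 rose 1.66-fold (edgeR adjusted p = 7.22e-05). The risers, SESN2 and GDF15, are also on the integrated stress response list. MYC had a log2 fold change of -0.20 ± 0.06903 and was not called (edgeR adjusted p = 0.0931).

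Among 25 tested apoptosis regulators 4 rose and 2 fell, where 2.89% of all tested genes rose and 4.59% fell. Without olaparib replicate 3, 2 rose and 2 fell. PMAIP1 (NOXA), which promotes cell death, rose 1.46-fold, and BMF, another pro-apoptotic gene, fell 1.68-fold (edgeR adjusted p = 0.00207 and 0.00186). BOK rose 1.54-fold (edgeR adjusted p = 0.00696) and BIK fell 1.29-fold (edgeR adjusted p = 0.0221), the latter lost in 6 of 14 other settings. Of 29 NRF2 and oxidative stress genes 3 were called, where 7.48% of all tested genes were. GCLC, of glutathione synthesis, rose 1.37-fold, while TKT and TALDO1 of the pentose phosphate pathway fell 1.23-fold and 1.26-fold (edgeR adjusted p = 0.0141, 0.0218 and 0.025). FTL, the ferritin light chain, was the 1 called of 18 iron genes (1.28-fold lower, edgeR adjusted p = 0.036), a share under the 7.48% of all tested genes. The TKT, TALDO1 and FTL calls were each lost in 5 of 14 other settings and the GCLC call in 3, all with 1 library left out. Each of these calls was lost without olaparib replicate 3, and likewise without combination replicate 2 or 3. HMOX1, the heme oxygenase, had a log2 fold change of -0.50 ± 0.17 (edgeR adjusted p = 0.0834).

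Cytosolic ribosomal protein genes were shifted down by a small amount. None of the 48 rose and 22 were called lower, with a median log2 fold change of -0.32. RPL3 stood at 2294, 2343 and 2440.2 CPM with olaparib and at 1791, 1674 and 1773 CPM with the combination (1.35-fold, log2 fold change -0.44 ± 0.0847, edgeR adjusted p = 0.00277). RPL37, RPL12 and RPLP2 fell 1.63-fold, 1.33-fold and 1.54-fold (edgeR adjusted p = 0.00463, 0.00629 and 0.00672), the latter 2 not called without combination replicate 2. The count depended on the fit: 2 were called without combination replicate 2, 6 without combination replicate 3, 14 without olaparib replicate 2, 35 with no filter on low counts and 36 in a fit of the 6 libraries alone. Of 13 mitochondrially encoded genes 0 passed edgeR's test (median -0.10), 2 had an unadjusted p under 0.05 and DESeq2 called 0. Of 4 tested germline genes silenced by DNA methylation 0 passed by either tool and 0 had an unadjusted p under 0.05.

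The strongest decreases included genes of leukocyte function. LSP1, an actin-binding protein of leukocytes, fell most under the naming rule. It stood at 16.1, 15.4 and 17.4 CPM with olaparib and at 0.931, 1.54 and 0.746 CPM with the combination (14.8-fold, log2 fold change -3.89 ± 0.20, edgeR adjusted p = 4.79e-10), on chromosome 11 from 1852970 to 1892267 (ENSG00000130592). SULF2, a sulfatase that edits heparan sulfate, stood at 21.2, 26.4 and 28.96 CPM with olaparib and at 2.48, 2.87 and 1.29 CPM with the combination (11.4-fold, log2 fold change -3.51 ± 0.21, edgeR adjusted p = 3.08e-09). TBC1D30, which regulates RAB GTPases, stood at 93.6, 90.5 and 93.6 CPM with olaparib and at 13.8, 20.6 and 6.07 CPM with the combination (6.79-fold, log2 fold change -2.76 ± 0.24, edgeR adjusted p = 2.28e-07). These 3 genes did not differ between the lines with vehicle by edgeR, and for each the combination and olaparib libraries were apart. FCGR2B, the inhibitory Fc receptor, stood at 5.55, 3.44 and 6.28 CPM with olaparib and at 0.672, 0.324 and 0.448 CPM with the combination (10.7-fold, log2 fold change -3.42 ± 0.34, edgeR adjusted p = 1.78e-06). TNF, the inflammatory cytokine, stood at 21.3, 24.8 and 26.6 CPM with olaparib and at 5.33, 4.86 and 4.82 CPM with the combination (4.86-fold, log2 fold change -2.28 ± 0.13, edgeR adjusted p = 1.22e-09). Both were apart between the groups, which the naming rule required of the largest decreases. TNF was 1.41-fold higher in MOLM-13 than in THP-1 with vehicle.

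Of 37 tested genes of monocyte and macrophage differentiation 12 fell and 3 rose (median -0.23), and without genes that differed between the lines 5 fell. Over all tested genes 4.59% fell and 2.89% rose. The alarmin pair S100A8 and S100A9, which form calprotectin, was lower. S100A9 stood at 236, 258 and 283 CPM with olaparib and at 75.1, 62.8 and 66.4 CPM with the combination (3.81-fold, log2 fold change -1.93 ± 0.0981, edgeR adjusted p = 4.78e-10), on chromosome 1 from 153357854 to 153361027 (ENSG00000163220). S100A8 stood at 102, 114 and 99.05 CPM with olaparib and at 40.97, 31.5 and 38.3 CPM with the combination (2.85-fold, log2 fold change -1.51 ± 0.11, edgeR adjusted p = 2.54e-08). Their lowest olaparib library was above their highest combination library. ITGAM, the integrin CD11b, stood at 72.04, 74.4 and 82.6 CPM with olaparib and at 43.3, 43.7 and 40.03 CPM with the combination (1.804-fold, log2 fold change -0.85 ± 0.08803, edgeR adjusted p = 2.59e-06). NCF1, a subunit of the phagocyte oxidase, fell 2.68-fold (edgeR adjusted p = 2.53e-07). It was 2.41-fold higher in MOLM-13 than in THP-1 with vehicle, and it shares reads with near-identical copies. CD14 was at 2.05, 2.001 and 3.097 CPM with olaparib and 2.69, 2.19 and 2.64 with the combination and was not called (log2 fold change 0.06 ± 0.31, edgeR adjusted p = 0.939). Its sign changed without olaparib replicate 1 or 2.

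Among 19 tested granule and antimicrobial genes 4 fell and 2 rose, where 4.59% of all tested genes fell and 2.89% rose. CST7, a protease inhibitor of granules, fell 4.25-fold (edgeR adjusted p = 5.43e-06) and was 3.803-fold higher in MOLM-13 than in THP-1 with vehicle. ORM1, an acute phase protein, stood at 0.377, 0.154 and 0.273 CPM with olaparib and at 3.36, 3.52 and 3.28 CPM with the combination (12.4-fold, log2 fold change 3.64 ± 0.57, edgeR adjusted p = 0.000332). The olaparib values rest on few counts, while the combination libraries were close to each other. The genes of primary granule proteases at high levels were not called, with log2 fold changes of -0.0047 for ELANE, -0.14 for PRTN3 and -0.22 for AZU1. CTSG, another protease of these granules, rose 1.51-fold (edgeR adjusted p = 0.00144). These 4 were named after their values were seen. Of 22 tested NF-kB and inflammatory mediators 4 fell and 0 rose (median -0.28), where 4.59% of all tested genes fell. Beside TNF the mediators that fell were the chemokine gene CCL3L1 (2.09-fold), TNFAIP3 (1.64-fold) and IL1B (1.901-fold), with edgeR adjusted p of 0.00996, 0.0228 and 0.041. The IL1B call was lost in 6 of 14 other settings, among them leaving out olaparib replicate 3. The TNFAIP3 call was lost in 5, and the CCL3L1 call in 1, the fit of 6 libraries. CCL3L1 has near-identical copies and was 2.14-fold lower in MOLM-13 than in THP-1 with vehicle.

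Of 29 tested genes of the KMT2A fusion program 4 fell and 0 rose (median -0.037), where 4.59% of all tested genes fell. FLT3, a growth factor receptor, stood at 28.8, 23.5 and 22.3 CPM with olaparib and at 10.8, 8.99 and 10.2 CPM with the combination (2.49-fold, log2 fold change -1.32 ± 0.14, edgeR adjusted p = 3.85e-06). MEIS1, a homeobox cofactor, stood at 1.99, 1.69 and 1.78 CPM with olaparib and at 0.3104, 0.526 and 0.0995 CPM with the combination (5.57-fold, log2 fold change -2.48 ± 0.44, edgeR adjusted p = 0.00111). IGF2BP3, an RNA-binding protein, was at 0.485, 0.4104 and 0.501 CPM with olaparib and at 0 counts in all 3 combination libraries (edgeR adjusted p = 0.00467), so it was not detected at this depth. With vehicle it was at 0.715, 1.12 and 1.93 CPM, and the filter on low counts used those libraries too. Of the 14 other settings, 13 tested it. With vehicle FLT3 was 3.89-fold and MEIS1 27.7-fold higher in MOLM-13 than in THP-1, and IGF2BP3 is among the 8 genes nearly absent from THP-1. RUNX2, a transcription factor gene that did not differ between the lines by edgeR, fell 1.42-fold (edgeR adjusted p = 0.00203). Of the 10 largest decreases under the naming rule, DLX5, EMD, RAB34 and EVPL also stood at least 4-fold higher in MOLM-13 than in THP-1. EMD, the nuclear envelope protein emerin, stood at 2.59, 1.69 and 3.23 CPM with olaparib and at 0.569, 0.162 and 0.497 CPM with the combination (6.26-fold, log2 fold change -2.65 ± 0.42, edgeR adjusted p = 0.000417). DLX5, RAB34 and EVPL fell 7.32-fold, 4.49-fold and 4.87-fold (edgeR adjusted p = 0.000901, 0.000221 and 0.000959). PMEL, the remaining gene of the 10, was at 1.24, 2.31 and 12.4 CPM with olaparib, and its call (edgeR adjusted p = 0.0108) was lost without olaparib replicate 3 or combination replicate 1.

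**Figure D3:**
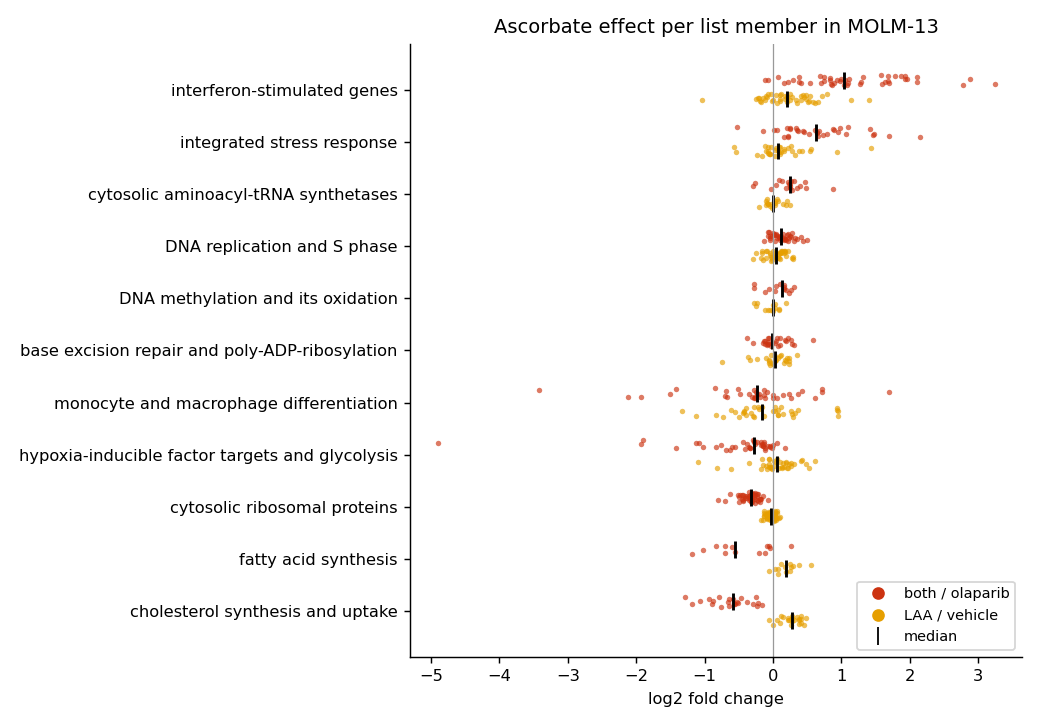
Log2 fold change (x axis) of each tested member of 11 gene lists in MOLM-13, for the combination over olaparib (red) and LAA over vehicle (orange), with list medians as bars. The medians of interferon-stimulated genes lie at 1.04 and 0.20, and those of the cholesterol list at -0.58 and 0.28.

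The ascorbate effect was set beside that of LAA over vehicle, which shares no library with it. LAA alone changed 303 of 16160 genes (1.88%), 128 higher (0.792%) and 175 lower (1.08%) by edgeR. Genes lower in both comparisons numbered 93, which is 12.6% of the 741 and 53.1% of the 175. Genes higher in both numbered 23, 4.93% of the 467 and 18% of the 128, and among them were IFI27, IFI6, IFITM1, IFITM3, OASL, TRIB3 and ATF5. Over all tested genes 4.59% were lower and 2.89% higher with olaparib present. Of the 175, 71 were higher in MOLM-13 than in THP-1 with vehicle, and of the 741, 104 were. That set was chosen with the same vehicle libraries that LAA alone is compared with, and its part in the 93 was not tested. No gene was higher with olaparib present and lower without it. The opposite pattern, lower with olaparib present and higher without it, was held by 12 genes, among them ACAT2, ACSS2, DHCR7, FADS2, LSS and MVD of lipid synthesis, S100A8, S100A9 and PFKFB4. The count for LAA alone fell to 113 and 140 when vehicle replicate 2 or 3 was left out, fell to 148 and 188 when LAA replicate 1 or 3 was, and rose to 469 when LAA replicate 2 was.

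**Figure D4:**
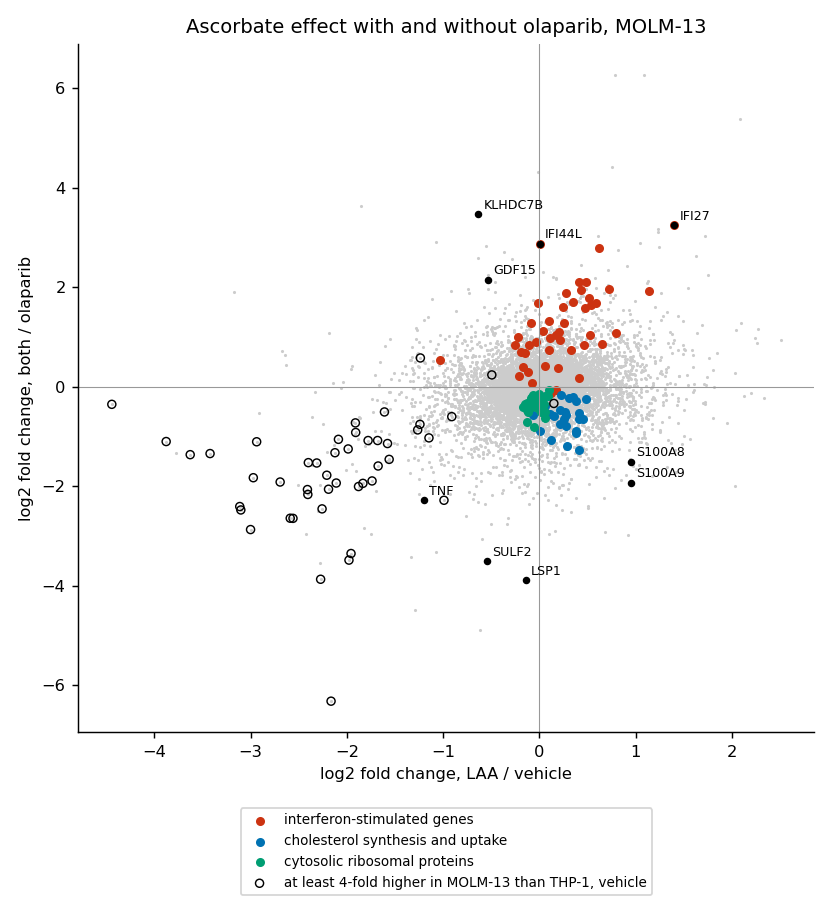
Log2 fold change of LAA over vehicle (x axis) against that of the combination over olaparib (y axis) for all tested genes in MOLM-13 (grey), with lines at 0, ribosomal protein genes in green and other named genes in black. Interferon-stimulated genes (red) spread upward, most cholesterol genes (blue) lie at lower right, and genes at least 4-fold higher in MOLM-13 than in THP-1 (open circles) lie mostly at lower left, where 26 of the 46 were called lower on the y axis. The open circles were chosen with the vehicle libraries that the x axis also uses.

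The difference between the ascorbate effects with and without olaparib was tested as an interaction. It was called for 329 of 16160 genes (2.04%), 115 more positive with olaparib (0.712%) and 214 more negative (1.32%). Of the 46 interferon-stimulated genes 26 were called more positive and 0 more negative, and the median of the difference was 0.94. IFI44L had log2 fold changes of 2.88 ± 0.28 with and 0.003 ± 0.32 without olaparib, a difference of 2.87 ± 0.43 (edgeR adjusted p = 0.000662). IFI27 rose in both settings, by 3.24 and 1.40 on the log2 scale (difference 1.84 ± 0.43, edgeR adjusted p = 0.0284). Of the 34 stress response genes 11 were more positive and 0 more negative. GDF15 stood at 1.296, 1.76 and 0.828 CPM with vehicle and 1.18, 0.722 and 0.751 CPM with LAA, so its difference was 2.68 ± 0.42 (edgeR adjusted p = 0.000973). For TRIB3 it was 1.27 ± 0.11 (edgeR adjusted p = 4.99e-07).

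Lipid genes had differences of the opposite sign. All but 3 of the 24 cholesterol genes, 21, were called more negative with olaparib and 0 more positive (median difference -0.87), and 7 of 13 fatty acid genes were. DHCR7 rose from 64.7, 75.5 and 75.7 CPM with vehicle to 101, 90.9 and 95.5 CPM with LAA (1.33-fold, edgeR adjusted p = 0.0193), against its 2.43-fold fall with olaparib present. The difference was -1.69 ± 0.13 (edgeR adjusted p = 3.03e-07). Hypoxia targets had 11 of 40 more negative and 0 more positive, among them ALDOC, at 55.4, 49.7 and 47.1 CPM with vehicle and 66.4, 62.03 and 60.4 CPM with LAA (difference -2.25 ± 0.22, edgeR adjusted p = 6.3e-06). S100A9 moved furthest apart of the myeloid genes on the panel. It stood at 225, 188 and 213 CPM with vehicle and 407, 363 and 439 CPM with LAA, a rise, while it fell with olaparib present, and the difference was -2.88 ± 0.14 (edgeR adjusted p = 2.46e-10). LSP1, SULF2 and TBC1D30, which were not called with LAA alone, had differences of -3.74 ± 0.25, -2.96 ± 0.27 and -2.26 ± 0.31 (edgeR adjusted p = 5.25e-08, 2.2e-06 and 0.000281).

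Genes that marked the MOLM-13 libraries are set side by side next. EMD had log2 fold changes of -2.65 ± 0.42 with and -2.56 ± 0.37 without olaparib (difference -0.09 ± 0.53, edgeR adjusted p = 0.965). MEIS1 had -2.48 ± 0.44 and -3.10 ± 0.41, a difference of 0.62 ± 0.63 (edgeR adjusted p = 0.705). FLT3 was called less negative with olaparib, -1.32 ± 0.14 against -2.20 ± 0.14 (difference 0.89 ± 0.20, edgeR adjusted p = 0.021). FLT3 stood at 37.8, 36.03 and 33.96 CPM with vehicle, above the olaparib libraries, and at 8.84, 8.72 and 5.92 CPM with LAA, below the combination libraries. Of the 46 genes at least 4-fold higher in MOLM-13 than in THP-1, 26 were called lower with LAA alone, with a median of -2.1. The 46 genes, EMD and MEIS1 among them, were chosen as high in the same vehicle libraries that LAA alone is compared with. That choice favours a fall with LAA alone. The interaction count fell to 210 and 218 when vehicle replicate 2 or 3 was left out and to 206 and 210 when combination replicate 2 or 3 was, and rose to 496 when LAA replicate 2 was. Olaparib alone changed 1 gene of 16160 by edgeR (0.00619%; 1354 had an unadjusted p under 0.05), CYP1B1, which was not called when LAA was added: 38.4, 35.4 and 35.6 CPM with olaparib and 35.2, 42.02 and 36.9 CPM with the combination (log2 fold change 0.06 ± 0.12, edgeR adjusted p = 0.826).

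**Figure D5:**
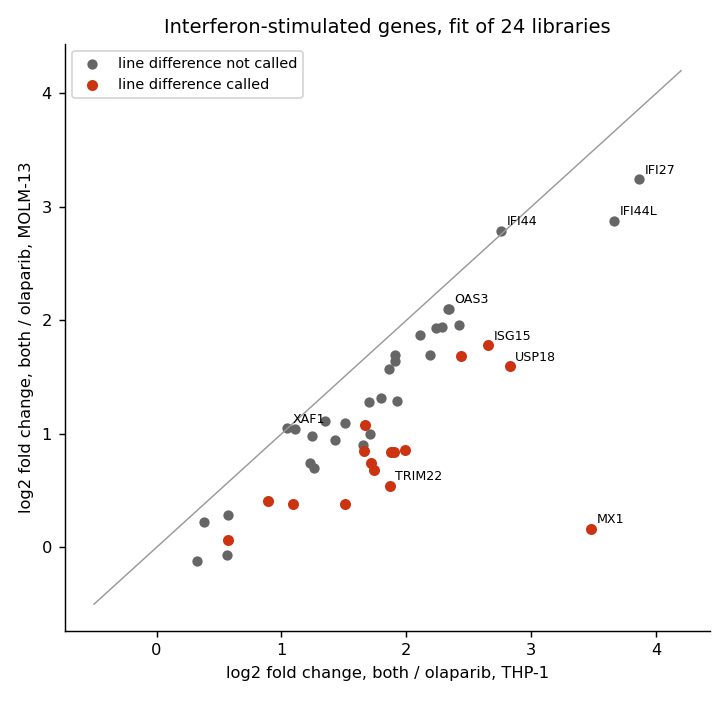
Log2 fold change of the combination over olaparib for 46 interferon-stimulated genes in THP-1 (x axis) and MOLM-13 (y axis), from the fit of 24 libraries; the line marks equal values and red points the 16 genes whose difference between the lines was called. Most points lie below the line, and MX1 is furthest from it.

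The same addition in THP-1 changed 3505 of 17089 genes (20.5%), 1887 higher (11%) and 1618 lower (9.47%). The test of the difference between the lines called 180 genes (1.05%), 37 more positive (0.217%) and 143 more negative (0.837%) in MOLM-13. Interferon-stimulated genes had a median log2 fold change of 1.77 in THP-1, and 16 of the 46 were called smaller in MOLM-13 and 0 larger. MX1 went from 3.06, 6.73 and 5.01 CPM with olaparib to 52.998, 54.6 and 58.1 CPM with the combination in THP-1, a log2 fold change of 3.48 ± 0.18 (edgeR adjusted p = 2.75e-15). The line difference for MX1 was -3.31 ± 0.30 (edgeR adjusted p = 8.93e-08). For IFI27, IFI44L and IFI44 it was -0.62 ± 0.35, -0.79 ± 0.29 and 0.032 ± 0.22 and was not called (edgeR adjusted p = 0.425, 0.194 and 0.965). Cholesterol genes had a median of -0.73 in THP-1, with 21 of 24 lower. DHCR7 fell 2.41-fold there, and S100A9 3.03-fold, with line differences of -0.0099 ± 0.12 and -0.33 ± 0.13 (edgeR adjusted p = 0.982 and 0.238). CDKN1A was called more negative in MOLM-13 by -0.85 ± 0.0856 (edgeR adjusted p = 2.97e-07): it fell in MOLM-13 and was 154, 146 and 157 CPM with olaparib and 167, 177 and 166 CPM with the combination in THP-1.

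Several genes with a called line difference also differed between the lines with vehicle. DYSF, MFNG, CST7 and PRSS57 fell in MOLM-13 and had log2 fold changes of 3.62, 1.14, 0.43 and 0.50 in THP-1. Of these, DYSF, CST7 and PRSS57 were 67.7-fold, 3.803-fold and 7.79-fold higher in MOLM-13 than in THP-1 with vehicle, and MFNG was not called between them. The DYSF ratio rests on few THP-1 counts, and its fall in MOLM-13 was not called in the fit of all 24 libraries, which gave the line difference (edgeR adjusted p = 0.051). PRSS57, a serine protease of granules, stood at 14.9, 14.2 and 12.2 CPM with olaparib and at 3.57, 3.24 and 3.98 CPM with the combination in MOLM-13 (3.83-fold, log2 fold change -1.94 ± 0.14, edgeR adjusted p = 2.66e-08). TNF was called more negative in MOLM-13 too, by -1.33 ± 0.19 (edgeR adjusted p = 8.8e-05). Leaving out 1 library at a time moved the count of line differences between 83 (without MOLM-13 combination replicate 3) and 212, and below 120 in 7 of 12 cases: without MOLM-13 olaparib replicate 3 (96), MOLM-13 combination replicate 1 (108), THP-1 olaparib replicate 1 (119) or 2 (89), and THP-1 combination replicate 1 (115) or 3 (93) as well.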

How the data were processed

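PolyA-selected RNA of 24 libraries (2 lines, 4 treatments, 3 replicates) was prepared with a kit that does not mark strand, per the labels' protocols. The deposited table gives unnormalized whole-number counts of 58735 genes in each library, and its 24 columns were mapped to samples by name. Per the submitters' processing notes, reads were handled with HISAT2, SAMtools and DESeq2 on hg38, with no versions named. How reads were counted, with which annotation and strand option, is not given in the sources used here, so overlapping and antisense genes cannot be told apart. A deposited FPKM table was not used. Symbols, identifiers and coordinates are those of the deposited table.

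Counts were analysed with edgeR 4.0.16 in R 4.3.3: filterByExpr, TMM and the quasi-likelihood F test with Benjamini-Hochberg adjustment over all tested genes at 0.05. MOLM-13 contrasts came from its 12 libraries, and THP-1 and line contrasts from all 24. Replicate numbers were not used to pair samples, as the labels do not say that they mark a shared culture or day. Same-numbered correlations were -0.086 to 0.12, which with 3 libraries per group cannot exclude one. No 2 libraries agreed within sampling noise. The members and the 33 gene lists were chosen with earlier results of these data known. Named genes were the 10 largest called protein-coding changes per direction (5 for the interaction and the line difference) with mean log2 CPM of 1 or more and, for the main contrast, groups that did not overlap, up to 4 called members per list by adjusted p, and a panel of 19 genes. Lists are described by counts and medians, and no list was tested. Alternatives were other scalings, no filter, a replicate block, fits of 6 or 24 libraries, mitochondrial genes left out, genes that differ between the lines left out, DESeq2 1.42.0 and leaving out each library. Tested on simulated data for this comparison, the edgeR step on 15817 genes recovered 47.8% of genes changed 1.5-fold, 83.6% at 2-fold and 92.4% at 4-fold, with 10 false calls. The changed genes, 67, 67 and 66 per fold, were drawn from those with a mean above 1 CPM. The rates do not cover genes below that level.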

Additional observations from a re-analysis of the deposited data

Results flagged for a closer look

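Within MOLM-13, the ascorbate effect differed between the presence and absence of olaparib for 329 genes by the interaction test (edgeR). Among the genes named by rule, those more positive with olaparib were KLHDC7B by 4.10 on the log2 scale, IFI44L by 2.87, GDF15 by 2.68, IFI44 by 2.17 and STOX2 by 1.93. STOX2 stood at 1.83, 4.06 and 5.29 CPM with vehicle, 1.58, 1.65 and 1.41 CPM with LAA, 3.45, 3.75 and 3.42 CPM with olaparib and 6.05, 5.67 and 5.12 CPM with the combination. More negative with olaparib were LSP1 at -3.74, SULF2 at -2.96, S100A9 at -2.88, S100A8 at -2.46 and TBC1D30 at -2.26.

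Between the lines, the effect of LAA added to olaparib differed for 180 genes by edgeR. Named genes more positive in MOLM-13 were KIF26A at 1.75, C11orf45 at 1.01, CNR1 at 1.00, EPHB1 at 0.97 and SEMA6A at 0.95. Of these, KIF26A had -1.76 in THP-1 and -0.016 in MOLM-13. SEMA6A was called lower in both lines, but the MOLM-13 call was lost in 9 of 14 other settings, and it was 2.26-fold lower in MOLM-13 than in THP-1 with vehicle. The MOLM-13 calls of C11orf45 and CNR1, both higher, were each lost in 4 of 14. More negative in MOLM-13 were DYSF at -4.68, MX1 at -3.31, MFNG at -3.12, CST7 at -2.51 and PRSS57 at -2.44.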

How the results depend on the processing

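Of 106 named called genes 77 kept direction and call in every setting that tested them, 29 lost the call in at least 1, and 0 changed direction. IGF2BP3, among the 77, was tested in 13 of 14 settings. Scaling by total counts gave 772 higher genes, 14 synthetases higher and 11 hypoxia targets lower, and KIF26A, not called, changed sign to 0.048. The fit of 24 libraries gave 711 higher genes. With no filter on low counts 35 ribosomal genes were lower, and the fit of 6 libraries gave 36. No filter gave 502 calls for LAA alone (215 higher, 287 lower), 555 for the interaction (209 and 346) and 417 for the line difference (159 and 258). DESeq2 gave 575 for LAA alone (279 and 296) and 544 for the interaction (217 and 327). Leaving out genes that differ between the lines at any fold left 2 interferon-stimulated genes higher and 5 monocyte genes lower. Beyond fewer genes or samples in those settings, the cause was not tested.

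With 1 library left out, calls in the MOLM-13 comparison were 624 to 918 (232 to 342 higher, 392 to 582 lower), in THP-1 2574 to 3223 (1346 to 1625 and 1199 to 1598), with LAA alone 113 to 469 (34 to 225 and 79 to 244), for the interaction 206 to 496 (60 to 205 and 139 to 291), for the line difference 83 to 212 (8 to 61 and 69 to 177), and between the lines at 4-fold 61 to 75 (36 to 42 and 21 to 33). By list, 33 to 37 interferon-stimulated, 17 to 19 stress response and 5 to 9 synthetase genes were higher, and 17 to 19 cholesterol, 11 to 17 hypoxia, 10 monocyte and 2 to 20 ribosomal genes lower. Among named genes not called, the log2 fold change crossed 0 for TET2 (-0.12 to 0.096), CD14 (-0.049 to 0.30), CYP1B1 (-0.015 to 0.12), KIF26A (-0.22 to 0.23) and MX1 (-0.0058 to 0.28). An arm left with 2 libraries shares its spread with the other groups of the fit.

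Replicate numbers were not used to pair samples. Correlations of same-numbered libraries were -0.043 to 0.015 between the compared groups, and 2 of the 6 libraries correlated best with their own number. With so few libraries this cannot exclude a shared culture or day. With a replicate block 1227 genes were called (495 higher, 732 lower), 308 with LAA alone and 347 for the interaction, and of the named calls SEMA6A was lost (edgeR adjusted p = 0.0511). Depth limits the low genes: EGLN3, IGF2BP3 and ORM1 rest on few counts per library in at least 1 group.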
